A study of Mus musculus with 9 samples.

Results

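The 9 genes described here are parts of the interferon response and of antigen display by MHC class I molecules: Stat2, Irf9, Irf3, Ifit2, Ifi35, Bst2, B2m, H2-K1 and H2-D1. They were taken by symbol from the deposited table of 35397 genes, and all 9 were found there. RNA was sequenced from retinas of db/db mice, which lack a working leptin receptor and become obese and diabetic, and of wild-type mice. There were 4 db/db libraries (db/db 1, 3, 4 and 5) and 5 wild-type libraries (wild type 1 to 5), and no further agent or allele is named for either group. The labels state no age, sex or strain background, and do not say that the libraries are of different mice, so the p-values below measure library-to-library spread, part of which may be technical. Expression is given as FPKM, fragment counts scaled to exon length and to library size, so that levels of different genes can be set side by side.

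Interferons are secreted proteins that warn cells of infection. Type I interferon acts through a receptor and the kinases Jak1 and Tyk2 on Stat2, which acts in a complex with Irf9 to turn on a large group of interferon-stimulated genes. Irf3 acts upstream, switching on interferon genes once viral nucleic acid is sensed. MHC class I molecules, built from a heavy chain such as H2-K1 or H2-D1 and the small subunit B2m, show peptides from inside the cell to T cells, and interferon raises their level in many tissues. In the normal retina they are known to be scarce on neurons.

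All 9 genes reached the filter of a mean of 1 FPKM, as did 14588 genes in all. No member passed an adjusted p of 0.05 between db/db and wild-type retina, where 0.5% of all genes tested did so, 0.233% higher and 0.267% lower in db/db (limma with Benjamini-Hochberg adjustment over all genes). At an unadjusted p under 0.05 stood 2 of the 9 members, Ifi35 and Ifit2, and 19.3% of all genes. limma-voom on reads recovered from the FPKM values also called none of the 9. Ifi35 was the only member whose groups did not overlap, with all db/db libraries above all wild-type libraries, as in 5.2% of all genes; all db/db libraries lay below in 6.38%, none of them members. The members' log2 changes had a median of 0.09, against 0.0035 over all genes tested, with 5 of 9 above 0. The members' median was -0.025 without db/db 1, with 4 of 9 above 0, and with GC content corrected it was also -0.025.

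**Figure D1:**
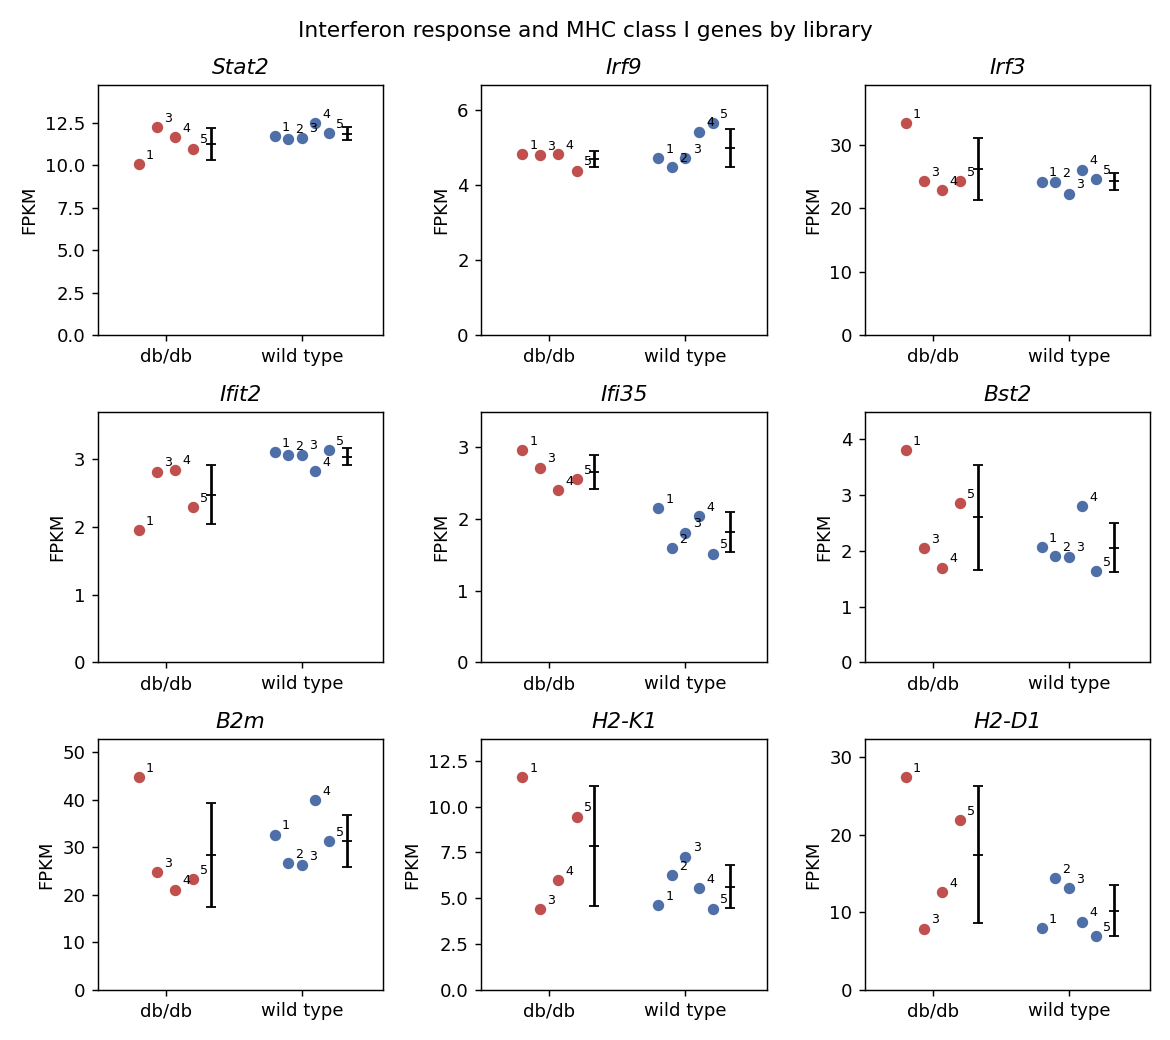
FPKM of each of the 9 genes (vertical axes, each from 0) in the db/db libraries (left, red) and wild-type libraries (right, blue). Digits are library numbers and bars are mean ± SD (n = 4 and n = 5); the groups separate for Ifi35, where db/db lies between 2.39 and 2.95 and wild type between 1.51 and 2.14.

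The libraries held 36.6 to 47.9 M reads, as recovered from the FPKM steps. db/db 1 stood apart: its FPKM values summed to 311179, against 252832 to 268139 in the other 8 libraries. In db/db 1 the median difference of log2(FPKM + 1) from the wild-type mean was 0.47 over the 20% of genes with the shortest transcripts and -0.35 over the 20% with the longest, while in the other 8 libraries these medians lay between -0.11 and 0.03. By GC content of the transcript, the medians in db/db 1, 3, 4 and 5 were -0.072, -0.043, -0.15 and -0.22 in the 20% with the lowest content and 0.24, 0.060, 0.062 and 0.15 in the 20% with the highest, against -0.030 to 0.037 in wild type for both. Rod markers summed to 11295 to 12971 FPKM in db/db and 11026 to 11848 FPKM in wild type. Of 10 markers of T, B and NK cells 8 were in the table, and none exceeded 0.432 FPKM in any library. Marker sums for pigment epithelium (420 FPKM) and for blood cells (72.9 FPKM) were highest in db/db 1, against 86.9 to 207 FPKM and 15.9 to 27.2 FPKM in the other 8 libraries. In bulk tissue, fewer cells of a type and less RNA per cell cannot be told apart. Over all genes tested, 34 passed as higher and 39 as lower in db/db retina. Without db/db 1 the counts were 688 and 852, and without any other single library 3 to 8 and 1 to 5.

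Among the factors that turn interferon genes on, Irf3 was the most abundant member and none passed between the groups. Irf3, the factor that induces interferon genes (ENSMUSG00000003184, chromosome 7, 44997648 to 45002848, mm10), had 33.5, 24.3, 22.9 and 24.3 FPKM in db/db 1, 3, 4 and 5, against 24.2, 24.2, 22.3, 26.1 and 24.6 FPKM in wild type 1 to 5. The groups overlapped, and db/db 1 was the single library above 26.1 FPKM. The log2 change was 0.09 (SE 0.11, limma adjusted p = 0.645) and -0.02 without db/db 1 (adjusted p = 0.787). The scale here and below is log2(FPKM + 1), which understates the change of low genes. Bcl2l12 overlaps Irf3 on the opposite strand at a mean of 0.531 FPKM, and the labels do not say whether counting used strand.

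Stat2, the signal transducer specific to type I and type III interferon (ENSMUSG00000040033, chromosome 10, 128270559 to 128292849), had 10.05, 12.2, 11.7 and 10.98 FPKM in db/db 1, 3, 4 and 5, against 11.7, 11.6, 11.6, 12.5 and 11.9 FPKM in wild type 1 to 5. It was the steadiest member, with a coefficient of variation of 6.14% over the 9 libraries. The mean was 11.2 ± 0.938 FPKM in db/db and 11.8 ± 0.370 FPKM in wild type (SD, n = 4 and n = 5). The 95% interval of the fold of FPKM + 1 ran from 0.860 to 1.05 (log2 change -0.07, SE 0.06, limma adjusted p = 0.542). The change was -0.026 without db/db 1 and -0.11 without db/db 3. Irf9, the DNA-binding subunit of the complex that holds Stat2 (ENSMUSG00000002325, chromosome 14, 55603571 to 55610030), was lower than Stat2 in every library, at 4.83, 4.798, 4.82 and 4.39 FPKM in db/db 1, 3, 4 and 5 and 4.73, 4.48, 4.72, 5.43 and 5.66 FPKM in wild type 1 to 5. All db/db values fell within or just below the wild-type range (log2 change -0.07, SE 0.07, adjusted p = 0.623; -0.043, -0.030 and -0.041 without wild type 4, wild type 5 or db/db 5). Rnf31 overlaps Irf9 on the same strand at a mean of 9.53 FPKM, so some reads of Irf9 may belong to it. The ratio of Stat2 to Irf9 was 2.08 to 2.55 in db/db and 2.10 to 2.58 in wild type.

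Irf7, which amplifies interferon production, averaged 4.31 ± 0.347 FPKM in db/db and 3.75 ± 0.181 FPKM in wild type (SD, n = 4 and n = 5; log2 change 0.16, adjusted p = 0.220). Irf1, induced by interferon gamma, had 1.498 ± 0.335 FPKM and 1.17 ± 0.307 FPKM in the same order (log2 change 0.21, adjusted p = 0.392; 0.13 and 0.516 without db/db 1). None of the 8 tested factors of 12 listed passed; Stat3 rose without db/db 1 (log2 change 0.23, adjusted p = 0.0216; 0.14 and 0.356 with all 9 libraries).

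Upstream of these factors, no receptor or kinase gene passed. Ifnar1 and Ifnar2, the chains of the type I interferon receptor, had log2 changes of 0.02 and 0.06 (adjusted p = 0.849 and 0.734). Jak1, a kinase bound to the receptor, averaged 18.1 ± 1.56 FPKM in db/db and 20.48 ± 0.743 FPKM in wild type (log2 change -0.17, adjusted p = 0.212). Its db/db libraries all lay below the wild-type libraries, as in 6.38% of all genes tested. Tyk2 differed by -0.01 (adjusted p = 0.945), and Ifngr1, a chain of the interferon gamma receptor, by 0.14 (adjusted p = 0.485). The changes without db/db 1 were -0.11 for Jak1, 0.083 for Tyk2, -0.017 for Ifnar2 and 0.029 for Ifngr1; without db/db 4, Ifngr1 differed by 0.22. None of the 7 tested of 9 receptor and kinase genes passed, and their median was -0.01. None of the 6 tested of 17 nucleic acid sensing genes passed either, among them the adaptor Mavs (0.01, adjusted p = 0.947), the Irf3 kinase Tbk1 (-0.0078, adjusted p = 0.948), the adaptor Myd88 (0.18, adjusted p = 0.373) and the ubiquitin ligase Trim25 (-0.14, adjusted p = 0.211). Myd88 and Mavs had changes of 0.080 and 0.12 without db/db 1. Tmem173, the adaptor also called STING, stood at 0.304 ± 0.115 FPKM in db/db and 0.270 ± 0.115 FPKM in wild type, below the filter. Of 10 interferon ligand genes 3 were in the table, and the highest averaged 0.00769 FPKM.

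**Figure D2:**
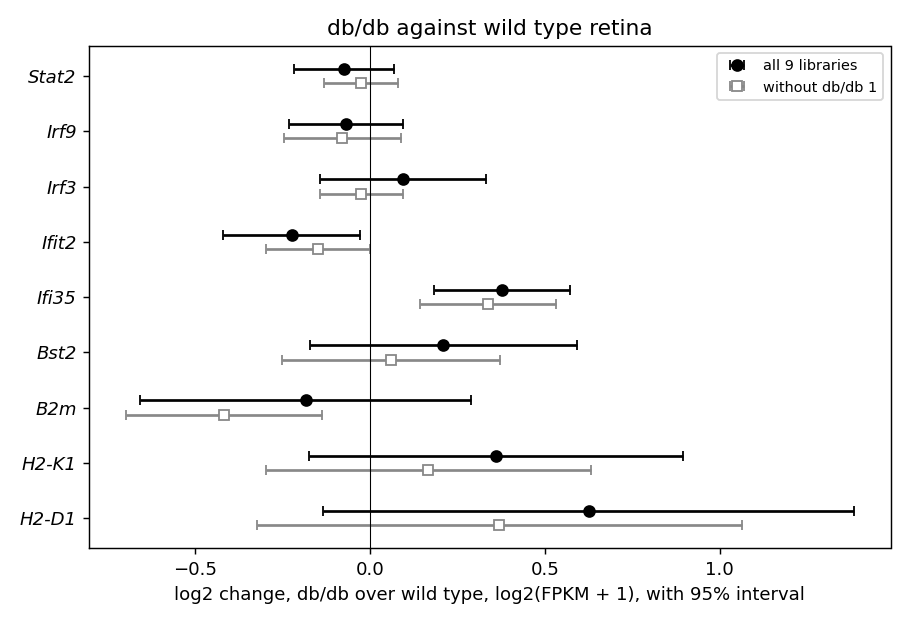
log2 change of each gene, db/db over wild type, on the log2(FPKM + 1) scale with its 95% interval, from all 9 libraries (filled) and without db/db 1 (open). The interval of Ifi35 lies above 0 in both fits. That of Ifit2 lies below 0 with all 9 libraries, and that of B2m without db/db 1 (-0.70 to -0.14). An interval without 0 means an unadjusted p under 0.05 (limma), which 2 of 9 members had in each fit. So had 2810 of 14588 genes tested with all 9 libraries and 4392 without db/db 1.

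Among the interferon-stimulated members, Ifi35 and Ifit2 differed in opposite directions, though neither passed over all genes. Ifi35, an interferon-induced protein with leucine zipper (ENSMUSG00000010358, chromosome 11, 101448407 to 101458698), had 2.95, 2.71, 2.39 and 2.55 FPKM in db/db 1, 3, 4 and 5. It had 2.14, 1.59, 1.80, 2.03 and 1.51 FPKM in wild type 1 to 5, each lower than any db/db value. The mean was 2.65 ± 0.239 FPKM in db/db and 1.82 ± 0.273 FPKM in wild type (SD, n = 4 and n = 5), a ratio of 1.46. The log2 change was 0.38 (SE 0.09, limma adjusted p = 0.0735), and the direction held in 4 of 4 db/db libraries. Without db/db 1 it rose by 0.34 (adjusted p = 0.0395); that fit called 1 of 9 members and 10.6% of all genes, a like share. Without each of the other 8 libraries in turn its adjusted p was 0.0883 to 0.200. With GC content corrected the change was 0.30 (limma adjusted p = 0.156). With db/db 1 also left out it was 0.28 (adjusted p = 0.0718). With values corrected for transcript length the change was 0.25 (adjusted p = 0.159). The gene rested on 118 to 235 recovered reads per library, and 10.7% of the 50-base windows of its longest transcript also occur in the antisense gene Gm11626 (mean 0.149 FPKM).

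Ifit2, which binds viral RNA and restrains translation (ENSMUSG00000045932, chromosome 19, 34550694 to 34576419), had 1.95, 2.82, 2.84 and 2.29 FPKM in db/db 1, 3, 4 and 5, against 3.10, 3.06, 3.06, 2.82 and 3.13 FPKM in wild type 1 to 5. The groups met at wild type 4, whose value lay between those of db/db 3 and db/db 4. The mean was 2.47 ± 0.432 FPKM in db/db and 3.03 ± 0.123 FPKM in wild type (log2 change -0.22, SE 0.09, adjusted p = 0.208; -0.15 and 0.169 without db/db 1). The change was -0.03 when GC content was corrected and db/db 1 left out. Its paralog Ifit3 averaged 5.997 ± 1.31 FPKM in db/db and 5.95 ± 0.478 FPKM in wild type, a log2 change of -0.0076 (adjusted p = 0.977). Ifit1 was below the filter at 0.403 ± 0.172 FPKM and 0.525 ± 0.0948 FPKM in the same order.

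Bst2, or tetherin, which holds budding virus at the cell surface (ENSMUSG00000046718, chromosome 8, 71534255 to 71537456), had 3.79, 2.04, 1.69 and 2.84 FPKM in db/db 1, 3, 4 and 5, against 2.06, 1.91, 1.89, 2.79 and 1.63 FPKM in wild type 1 to 5. db/db 1 was the highest library, and db/db 5 and wild type 4 lay close together below it. The log2 change was 0.21 (SE 0.17, limma adjusted p = 0.515), 0.06 without db/db 1 (adjusted p = 0.809) and 0.34 without db/db 4. The gene is short, with 903 bases of exon, and rested on 63 to 158 recovered reads. With values corrected for transcript length the change was 0.096 (adjusted p = 0.633).

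Of 73 listed interferon-stimulated genes 24 were tested and 49 lay below the filter. None of the 24 passed in either direction, and their median log2 change was 0.05, against 0.0035 over all genes; without db/db 1 these medians were -0.027 and -0.017. Isg15, the ubiquitin-like modifier, averaged 0.882 ± 0.437 FPKM in db/db and 1.13 ± 0.347 FPKM in wild type (log2 change -0.20, adjusted p = 0.551; -0.33 and 0.193 without db/db 1). Genes that restrain the response were mixed. Of 11 tested none passed with all 9 libraries, while Pias3, Trim28 and Irf2bp1 rose without db/db 1, a fit in which 4.72% of all genes rose. Pias3, an inhibitor of Stat3, averaged 51.8 ± 1.32 FPKM in db/db and 41.7 ± 3.73 FPKM in wild type (log2 change 0.31, adjusted p = 0.0735; 0.31 and 0.0262 without db/db 1). Trim28, a corepressor that silences endogenous retroviruses, had 56.8 ± 8.82 FPKM and 43.0 ± 3.07 FPKM in the same order (0.38, adjusted p = 0.0924; 0.28 and 0.0259 without db/db 1).

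Promoter sequences of the 3 members with an exact match to a pattern of the interferon response element show how it lies before each start. In RefSeq (GRCm38.p6), windows from 250 bases before to 50 after the start were searched for GAAANNGAAA and, on the other strand, TTTCNNTTTC. Each line runs in the gene's direction, with matches in capitals.
Stat2 (chr10:128270248-128270547, plus strand): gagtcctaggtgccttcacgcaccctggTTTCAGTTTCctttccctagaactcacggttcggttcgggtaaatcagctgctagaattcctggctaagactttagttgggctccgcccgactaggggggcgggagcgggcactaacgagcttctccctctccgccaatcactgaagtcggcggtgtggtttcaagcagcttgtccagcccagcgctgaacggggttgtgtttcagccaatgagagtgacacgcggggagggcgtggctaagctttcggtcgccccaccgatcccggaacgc
Bst2 (chr8:71537423-71537722, minus strand): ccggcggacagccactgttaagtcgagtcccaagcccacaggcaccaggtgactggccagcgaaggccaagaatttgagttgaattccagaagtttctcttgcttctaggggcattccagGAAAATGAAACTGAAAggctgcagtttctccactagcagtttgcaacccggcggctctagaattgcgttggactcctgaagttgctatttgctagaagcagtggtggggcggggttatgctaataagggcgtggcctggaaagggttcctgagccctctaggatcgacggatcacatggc
B2m (chr2:122147437-122147736, plus strand): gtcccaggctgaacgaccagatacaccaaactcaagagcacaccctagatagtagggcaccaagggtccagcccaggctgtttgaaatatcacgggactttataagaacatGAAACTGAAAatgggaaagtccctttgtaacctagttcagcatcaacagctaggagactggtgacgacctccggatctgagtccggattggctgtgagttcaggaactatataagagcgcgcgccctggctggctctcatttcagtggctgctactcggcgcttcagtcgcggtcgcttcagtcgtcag
The match begins 222 bases before the start in Stat2 and 139 before it in B2m. Bst2 holds 2 overlapping matches, from 130 and 124 bases before the start. Of all 32851 promoter windows 3.44% hold a match. The remaining 6 members have none in these windows, which says only that these letters are not there. Variants of the element were not searched for. The gamma-activated site TTCNNNGAA, which reads the same on both strands, occurs in 3 of the 9 members (Ifit2, Ifi35 and Bst2) and in 8.3% of all windows.

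The class I members were among the most variable, and none passed between the groups. B2m, the subunit common to all class I molecules (ENSMUSG00000060802, chromosome 2, 122147686 to 122153083), was the most abundant member on average over the 9 libraries, with 44.7, 24.7, 21.05 and 23.2 FPKM in db/db 1, 3, 4 and 5. In wild type 1 to 5 it had 32.6, 26.7, 26.2, 39.9 and 31.3 FPKM. db/db 1 was the highest of all 9 libraries and db/db 4 the lowest, so the groups overlapped. With all 9 libraries the log2 change was -0.18 (SE 0.21, limma adjusted p = 0.648); without db/db 1 it was -0.42 (SE 0.12, adjusted p = 0.0614). Without db/db 1 and with GC content corrected it was -0.27 (adjusted p = 0.233). B2m has 860 bases of exon, and with values corrected for transcript length its change was -0.30 (adjusted p = 0.222). Without wild type 4, db/db 4 or db/db 5 it was -0.096, -0.067 and -0.11.

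H2-K1, a classical heavy chain (ENSMUSG00000061232, chromosome 17, 33996017 to 34000347), had 11.6, 4.398, 5.98 and 9.45 FPKM in db/db 1, 3, 4 and 5, against 4.62, 6.24, 7.26, 5.53 and 4.41 FPKM in wild type 1 to 5. db/db 3 was the lowest and db/db 1 the highest of the 9 (log2 change 0.36, SE 0.24, adjusted p = 0.425). Its change was 0.17 without db/db 1 (adjusted p = 0.627), and without db/db 3 it was 0.57 (adjusted p = 0.179). H2-D1, the other classical heavy chain of the reference strain (ENSMUSG00000073411, chromosome 17, 35262730 to 35267499), had 27.4, 7.84, 12.6 and 21.8 FPKM in db/db 1, 3, 4 and 5. In wild type 1 to 5 it had 7.91, 14.3, 13.05, 8.79 and 6.92 FPKM. The highest library of the 9 exceeded the lowest by 3.95-fold, and this range was wider than that of 97.95% of all genes tested. The mean was 17.4 ± 8.82 FPKM in db/db and 10.2003 ± 3.29 FPKM in wild type (SD, n = 4 and n = 5), but the groups overlapped. The 95% interval of the fold of FPKM + 1 ran from 0.911 to 2.61 (log2 change 0.62, SE 0.34, limma adjusted p = 0.340). Without db/db 1 the change was 0.37 (adjusted p = 0.454), and without db/db 3 it was 0.93 (adjusted p = 0.143).

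The heavy chains kept a steadier ratio to each other than to B2m. The ratio of H2-D1 to H2-K1 was 1.78 to 2.36 in db/db and 1.57 to 2.30 in wild type. The ratio of B2m to the sum of both heavy chains ran from 0.743 in db/db 5 to 2.02 in db/db 3 among db/db libraries, and from 1.29 in wild type 3 to 2.79 in wild type 4 among wild-type libraries.

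The same libraries were low for H2-K2, a class I pseudogene beside H2-K1 (ENSMUSG00000067203, chromosome 17, 33974659 to 33978827). It had 17.1, 0.394, 10.9 and 24.2 FPKM in db/db 1, 3, 4 and 5, against 0.403, 10.04, 10.8, 0.263 and 0.282 FPKM in wild type 1 to 5. It was thus near 0 in db/db 3 and wild type 1, 4 and 5, and at 10.04 FPKM or more in the other 5 libraries, with no value between (log2 change 1.58, SE 1.02, adjusted p = 0.415). Rps18, a ribosomal protein gene close by on the same chromosome, had 54.3, 8.68, 30.5 and 64.6 FPKM in db/db 1, 3, 4 and 5, against 7.66, 31.3, 29.7, 6.87 and 6.005 FPKM in wild type 1 to 5. The same 4 libraries were again the lowest.

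These 4 libraries were also the lowest 4 for H2-K1 and H2-D1, 2 of the 9 members, and for 53 of 14588 genes tested (0.363%). This pattern was looked for after the values of H2-K2 were seen. Of the 53 genes 10 were on chromosome 17, which held 716 tested genes, and 7 lay within 1000 kb of H2-K2, where 62 genes were tested. The 53, the 10 and the 7 each count H2-K2 itself, whose values set the 4 libraries. H2-D1 lay outside that window, at 1288 kb. In 3 of the 53 the gap between neighbouring libraries at that point of the order was at least 1 in log2(FPKM + 1): H2-K2 (2.98), Rps18 (1.66) and Gm9522, a processed pseudogene on chromosome 15 (1.56). For H2-D1 the gap was 0.47. H2-K1 had no marked gap there: wild type 4, the highest of the low libraries, had 5.53 FPKM. The next library up, db/db 4, had 5.98 FPKM, a smaller step than that from wild type 1 (4.62 FPKM) to wild type 4. The order within pairs of libraries was like that of H2-K2 in 29 of 36 pairs for H2-K1 and for H2-D1. For B2m it was so in 12 of 36. Sharing the 4 lowest libraries already makes each pair of a low and a high library agree, so these counts are not separate support. Zbtb22 and Kank3, genes near H2-K2 without the same 4 lowest libraries, reached 31 and 30 pairs. Genotype divided these libraries differently, since both the low and the high ones held db/db and wild type.

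**Figure D3:**
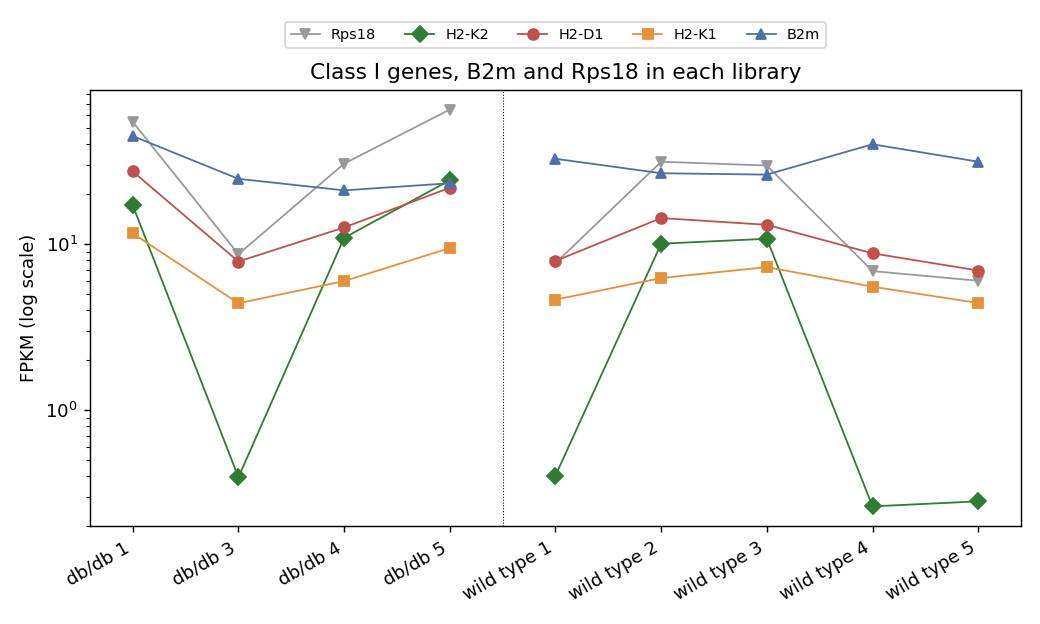
FPKM on a log axis of H2-K2, H2-D1, H2-K1, B2m and Rps18 in each library, db/db left of the dotted line and wild type right of it; lines only join the values of 1 gene. H2-K2 drops to 0.394 in db/db 3 and to 0.263 to 0.403 in wild type 1, 4 and 5, where H2-D1 lies between 6.92 and 8.79.

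**Figure D4:**
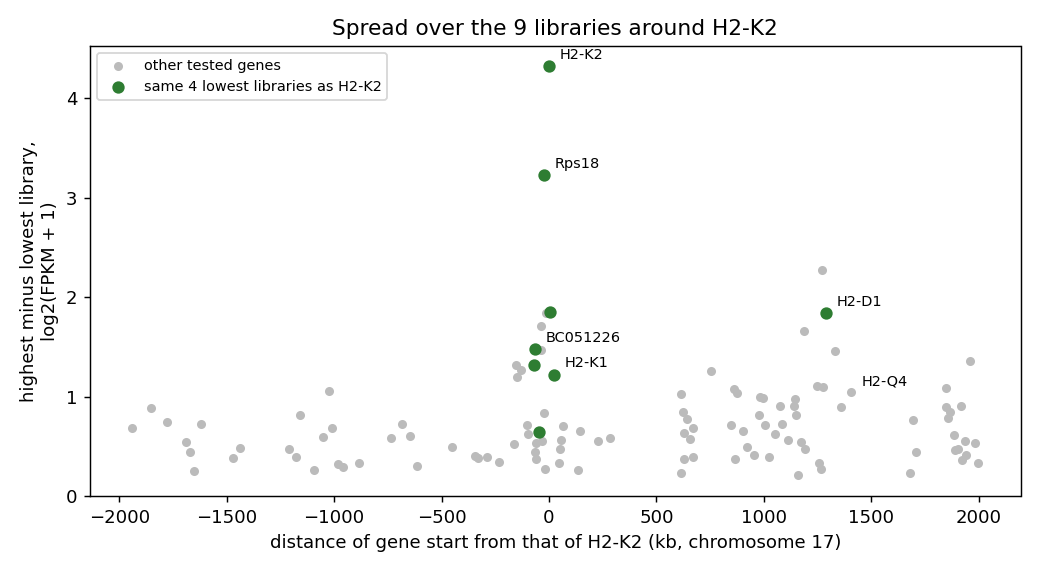
Highest minus lowest library in log2(FPKM + 1) for each tested gene near H2-K2 on chromosome 17, against the distance between gene starts in kb. Green genes have the same 4 lowest libraries as H2-K2; the spread is 4.32 for H2-K2, 1.22 for H2-K1 and 1.84 for H2-D1.

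Class I genes resemble each other closely, which bears on these values. The longest H2-K1 and H2-D1 transcripts were 90.7% identical over 1581 aligned bases, and H2-K2 was 88.9% identical to H2-K1 and 89.0% to H2-D1. Of the 50-base windows of these transcripts 8.79% (H2-K1), 14.3% (H2-D1) and 10.9% (H2-K2) occur in transcripts of other genes, so part of their reads could be counted for a paralog. No such window was shared by Stat2, Irf3, Ifit2, Bst2 or B2m. Class I genes are known to differ between mouse strains, and the table does not separate alleles.

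The promoters of H2-K1 and H2-D1, the pair with the same lowest libraries, are printed here from RefSeq (GRCm38.p6) with stretches of at least 12 bases found in both in capitals.
H2-K1 (chr17:34000298-34000597, minus strand): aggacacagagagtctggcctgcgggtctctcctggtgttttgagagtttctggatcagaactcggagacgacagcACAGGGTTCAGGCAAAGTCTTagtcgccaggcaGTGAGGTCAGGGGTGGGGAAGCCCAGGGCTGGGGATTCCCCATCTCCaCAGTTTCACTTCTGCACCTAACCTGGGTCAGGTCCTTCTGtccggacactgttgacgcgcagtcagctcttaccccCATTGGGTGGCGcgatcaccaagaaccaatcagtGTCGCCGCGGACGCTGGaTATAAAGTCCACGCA
H2-D1 (chr17:35262844-35263143, plus strand): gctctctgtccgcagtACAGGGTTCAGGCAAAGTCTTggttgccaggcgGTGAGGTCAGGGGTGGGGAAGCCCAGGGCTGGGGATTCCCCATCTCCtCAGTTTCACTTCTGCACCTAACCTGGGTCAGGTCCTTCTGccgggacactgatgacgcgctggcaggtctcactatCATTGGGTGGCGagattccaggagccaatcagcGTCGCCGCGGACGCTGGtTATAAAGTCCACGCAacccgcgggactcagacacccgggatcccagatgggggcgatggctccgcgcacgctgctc
These stretches cover 152 of 300 bases in each, the longest being 47 bases, and 88.3% of 239 aligned bases were identical.

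Other class I genes were low. H2-T23, a nonclassical chain that presents leader peptides, averaged 1.74 ± 0.606 FPKM in db/db and 1.12 ± 0.335 FPKM in wild type (log2 change 0.35, adjusted p = 0.285), and H2-T22 had 1.92 ± 0.260 and 1.61 ± 0.0671 FPKM (0.16, adjusted p = 0.270). H2-M3 stood below the filter at 0.728 ± 0.229 FPKM in db/db and 0.778 ± 0.0710 FPKM in wild type. The list of class I heavy chains and B2m also holds H2-K1, H2-D1, B2m and H2-K2. Of its 9 tested genes none passed, and 7 of 9 had a positive log2 change. Their median was 0.35 from all 9 libraries and 0.17 without db/db 1, against 0.0035 and -0.017 over all genes tested. H2-K1, H2-D1 and H2-K2, all positive, share their lowest libraries, which were mostly wild type, so these genes do not count as independent.

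Of the peptide loading machinery, no gene passed with all 9 libraries. Calr and Canx, chaperones of the endoplasmic reticulum that also serve many other proteins, were lower in each db/db library than in any wild-type library. The same held for 6.38% of all genes tested. Calr averaged 119 ± 18.5 FPKM in db/db and 160 ± 4.56 FPKM in wild type (log2 change -0.43, adjusted p = 0.0735), and fell by 0.52 without db/db 1 (adjusted p = 0.00843). Canx averaged 57.8 ± 4.22 and 69.8 ± 4.39 FPKM in the same order (-0.27, adjusted p = 0.1004; -0.30 and 0.0261 without db/db 1). Pdia3 fell with them in that fit (-0.49, adjusted p = 0.00538). Tapbp, which bridges class I molecules and the transporter, had a log2 change of -0.05 (adjusted p = 0.823), and -0.17 without db/db 1 (adjusted p = 0.0973). With GC content corrected and db/db 1 left out, Tapbp passed (-0.26, adjusted p = 0.0310) and Canx did not (-0.18, adjusted p = 0.0729). Tap2, a transporter subunit, had a log2 change of 0.12 (adjusted p = 0.581), and 0.012 without db/db 1. Psmb8 and Psmb9, subunits of the immunoproteasome, and Nlrc5, the transactivator of class I genes, lay below the filter, at 0.334 ± 0.0588, 0.159 ± 0.0675 and 0.0801 ± 0.0140 FPKM in db/db and 0.255 ± 0.0567, 0.192 ± 0.0334 and 0.0943 ± 0.0243 FPKM in wild type. None of the 14 tested genes of 18 listed passed with all 9 libraries, and Calr, Canx and Pdia3 were the 3 that fell without db/db 1, a fit in which 5.84% of all genes fell.

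**Figure D5:**
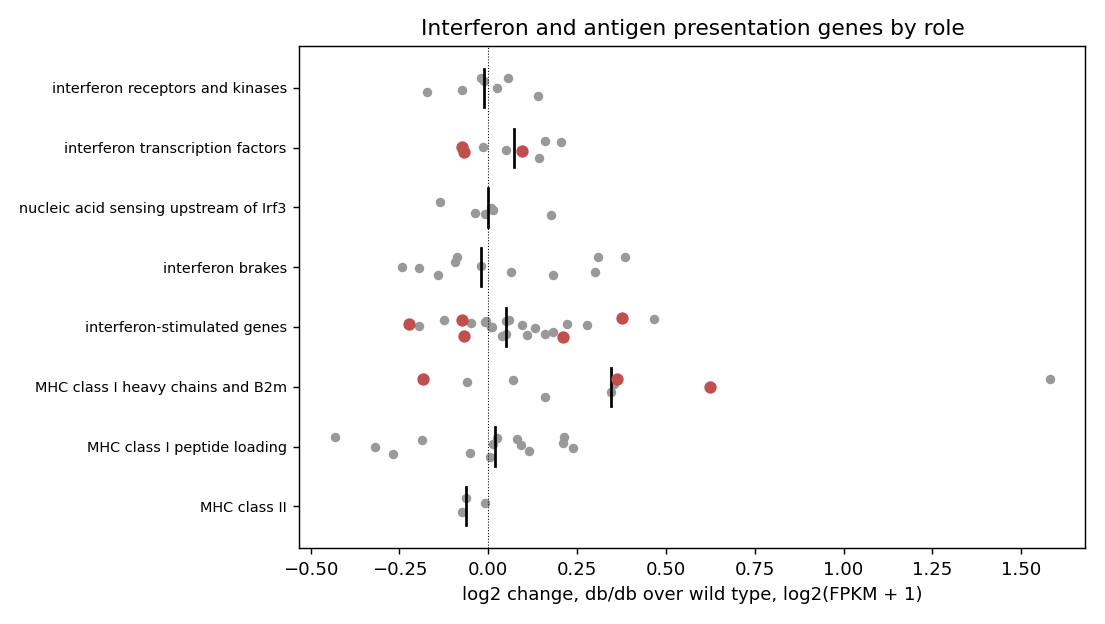
log2 change, db/db over wild type, of every tested gene of 8 lists (grey, members in red), with the list's median as a black line. Medians lie from -0.06 for MHC class II to 0.35 for class I heavy chains and B2m; H2-K2 is the point at 1.58. Without db/db 1, which is not drawn, these list medians were -0.15 and 0.17.

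Listed genes below the filter, most of them interferon-stimulated, were looked at after their values had been seen. Of 97 listed genes with a mean under 1 FPKM, db/db lay wholly below wild type for 7 and wholly above it for 2. The same held for 1.36% and 0.923% of all 20809 genes with a mean above 0 and under 1 FPKM. With means of 0.1 to 1 FPKM, 7 of 61 listed genes lay below and 0 above. Of all 7875 genes in that range, 2.72% lay below and 1.45% above. The 7 were Tap1, a peptide transporter subunit, Rtp4, the RNA-activated kinase Eif2ak2, and the guanylate-binding proteins Gbp2, Gbp3, Gbp5 and Gbp9, which are paralogs that could share reads. Gbp3 averaged 0.551 ± 0.134 FPKM in db/db and 0.995 ± 0.154 FPKM in wild type, Gbp2 0.637 ± 0.0319 and 0.897 ± 0.156 FPKM, and Tap1 0.554 ± 0.0785 and 0.780 ± 0.111 FPKM (SD, n = 4 and n = 5). The 2 above were Oasl1, at 0.0831 to 0.224 FPKM in db/db and 0 to 0.0604 FPKM in wild type, and the chemokine Cxcl10, at 0.0399 to 0.144 FPKM in db/db and 0 to 0.0200 FPKM in wild type, each on 24 reads or fewer. None of the 9 passed in a limma fit without the filter (adjusted p from 0.148 for Rtp4 to 0.418 for Eif2ak2). Transcript GC content was 42.1% to 49.2% in the 4 Gbp genes, 43.9% in Eif2ak2, 49.0% in Rtp4 and 55.8% in Tap1. It was 56.3% in Oasl1 and 47.1% in Cxcl10. In db/db, tested genes of lowest GC content were shifted down (medians -0.043 to -0.22). GC content was not corrected for genes below the filter, so its part in these differences was not tested.

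Of 11 MHC class II genes in the table, marks of antigen-presenting cells, 8 lay below the filter. H2-Ab1 averaged 1.36 ± 0.465 FPKM in db/db and 1.43 ± 0.205 FPKM in wild type (log2 change -0.06, adjusted p = 0.813). Cd74, the invariant chain, had 1.81 ± 1.03 and 2.16 ± 1.77 FPKM in the same order (-0.07, adjusted p = 0.925). These changes were -0.15 and -0.30 without db/db 1, and positive without db/db 5 for H2-Ab1 (0.043) and without wild type 4 (0.20) or db/db 3 (0.064) for Cd74. None of the 3 tested genes of 12 passed.

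Across all lists 77 different genes were tested and none passed in either direction with all 9 libraries (limma; limma-voom also called none), while 11 had an unadjusted p under 0.05, against 2810 of 14588 genes overall. The sum of microglia and macrophage markers, of which 5 of 12 were tested and none passed, was 21.1 to 24.9 FPKM in db/db and 21.3 to 29.7 FPKM in wild type. Endothelial markers summed to 35.9 to 47.4 FPKM in db/db and 32.4 to 38.4 FPKM in wild type, with the highest value in db/db 1. Microglia and endothelium are known to carry class I molecules, and their part in the values above was not tested. Markers of Muller glia and astrocytes summed to 1094 to 1131 FPKM in db/db and 1016 to 1058 FPKM in wild type, without overlap. Among single genes tested, 11.6% had groups without overlap in either direction. A single gene reached 707 FPKM within this sum, so it does not show the list as a whole. Ganglion cell markers summed to 424.8 FPKM in db/db 1 and 273.7 to 322.3 FPKM in the other 8 libraries, and amacrine cell markers to 116.8 FPKM in db/db 1 and 149 to 157 FPKM in the others. No single gene of these lists passed with all 9 libraries, and their part was not tested either.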

How the data were processed

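Retinal RNA was extracted with a Qiagen column kit and made into SMARTER libraries from 1.3 ug each, per the labels' protocols. The authors deposited FPKM values for 35397 genes in 9 libraries; the submitters' processing notes name mm10 as the build. Aligner, counter, strand setting, gene models: not given in the sources used here. Columns named Control and DR with a number were matched to the wild-type and db/db titles with that number, an inference from the names. Symbols and positions came from GENCODE M21 (same assembly), which matched 34499 identifiers, and promoters from RefSeq.

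FPKM times exon length moved in constant steps, so that 99.0% to 99.2% of low values were whole within 0.1 read; this gave the depths. These reads may be ends of a pair, and their number limits precision by counting error only.

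Genes averaging 1 FPKM or more were fitted as log2(FPKM + 1) with limma 3.58.1 in R 4.3.3 (eBayes with a trend, no covariate) and adjusted by Benjamini-Hochberg over 14588 genes at 0.05. The fit was tested on simulated data. Named genes were the members, others chosen by name, of which 1 is not reported here, and, since no listed gene passed, the 2 of lowest p in every list; others were named after their values were seen. The members and lists were chosen with earlier results of these data known. All 9 libraries entered the reported fit. Alternatives changed the pseudocount, filter, scaling, variance model, weights, GC or length correction and the libraries used, or ran limma-voom on the recovered reads. Figures used matplotlib 3.10.9 in Python 3.11.15.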

Additional observations from a re-analysis of the deposited data

Results flagged for a closer look

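In 84 groups of libraries looked at (db/db and wild type separately, for the members and the other named genes), 10 had a library whose gap to its neighbour, as a share of the group's range, passed Dixon's 95% critical value. Chance alone flags about 1 in 20 groups.

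Among the members, db/db 1 stood above the other db/db libraries for B2m (44.7 FPKM, the next 24.7 FPKM, share 0.846) and Irf3 (33.5 and 24.3 FPKM, share 0.868). db/db 5 stood below the others for Irf9 (4.39 and 4.798 FPKM, share 0.934). Wild type 4 stood below the other wild-type libraries for Ifit2 (2.82 and 3.06 FPKM, share 0.764).

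Of the other pathway genes, Tapbp was high in db/db 1 (share 0.856) and Ifnar1 low in db/db 5 (share 0.865). Wild type 4 was high for Mavs (share 0.803) and Pias3 (share 0.816), wild type 5 was high for Stat3 (share 0.795), and wild type 2 was low for Calr (share 0.72).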

How the results depend on the processing

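Of the members, Stat2, Irf9, Ifit2, B2m, H2-K1, H2-D1 and Ifi35 kept their sign under every alternative that gave a value. Ifi35 passed under array weights (0.36) and without db/db 1. Its changes without 1 library ranged from 0.34 to 0.42. Under the GC and length corrections they ranged from 0.25 to 0.30, and it did not pass. Irf3 changed sign under array weights (-0.0020), GC correction (-0.025) and GC correction without db/db 1 (-0.11), and ranged from -0.025 to 0.15 without 1 library; Bst2 did so under GC correction without db/db 1 (-0.014). With a minimum mean of 5 FPKM, Irf9, Ifit2, Ifi35 and Bst2 have no value.

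Higher and lower calls over all genes were 7 and 2 with no filter, 17 and 13 with a mean of at least 5 FPKM, 550 and 656 with array weights, 5 and 1 with GC correction, 374 and 341 when that correction was made with db/db 1 left out, 289 and 254 with both db/db 1 and db/db 4 left out, and 270 and 243 with a correction by transcript length, chosen after seeing the data. limma-voom gave 64 lower. Leaving out 1 library gave 3 to 688 higher and 1 to 852 lower. With the replicate block there were 2 higher and 0 lower. Deviations of same-numbered libraries had correlations of 0.0434, 0.0455, -0.180 and 0.134. Those of differently numbered libraries lay between -0.21 and 0.18. These values cannot tell whether the numbers pair the libraries, and wild type 2 has no partner. By limma, 0 pathway genes passed in the report's fit, and 11 had an unadjusted p under 0.05. Higher and lower calls among them were 5 and 3 with array weights, 2 and 3 when GC content was corrected in the 8 libraries other than db/db 1, 1 and 2 with db/db 1 and db/db 4 left out, and 2 and 1 with the length correction; quantile normalization gave 1 lower. Leaving out 1 library gave 0 to 5 higher and 0 to 3 lower.

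Small changes of other genes turned sign. Under array weights these were Ifnar2 (-0.0033), Tyk2 (0.085) and Tbk1 (0.018); under GC correction Ifit3 (0.025), Mavs (-0.065), Tbk1 (0.041) and Tap2 (-0.0030); under GC correction without db/db 1 Ifnar2 (-0.019), Tbk1 (0.065) and Tap2 (-0.076). With db/db 1 and db/db 4 left out they were Ifnar1 (-0.011), Tyk2 (0.072), Ifit3 (0.031) and Tbk1 (0.0046); under quantile normalization Tyk2 (0.0035) and Ifit3 (0.0043); under the length correction Tyk2 (0.0405) and Mavs (-0.018). Without 1 library the ranges were -0.017 to 0.11 for Ifnar2, -0.061 to 0.083 for Tyk2, -0.10 to 0.11 for Ifit3, -0.0599 to 0.115 for Mavs, -0.0400 to 0.016 for Tbk1, -0.17 to 0.0050 for Tapbp, -0.15 to 0.043 for H2-Ab1 and -0.30 to 0.20 for Cd74. The causes were not tested. Ifi35, Bst2 and the genes below the filter rest on few reads.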
